A study of Mus musculus with 2 samples.

Results

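The p53 pathway genes described here were Trp53, its inhibitors Mdm2 and Mdm4, the deubiquitinase gene Usp7, and the p53 target genes Cdkn1a, Ccng1 and Ppm1d. All m6A positions that lay on the same strand within an annotated exon of these 7 genes were taken. They numbered 203 of the 160430 positions in the series, and each of the 7 genes had at least 20. Of the 203 positions, 184 were in a list from wild-type (WT) cells or from the comparison of WT with knockout, and 147 were in a knockout (KO) list. The positions were called from ONT direct RNA sequencing (DRS), in which native poly(A) RNA passes through a protein pore and the current is read, so that modified bases can be sought in the signal or in the base-calling errors. The RNA came from mouse 129 embryonic stem cells (mESCs), either WT or with Mettl3 KO, and there was 1 library of each. Mettl3 encodes the main m6A methyltransferase of mRNA. The KO cells carried 2 drug resistance genes in place of Mettl3 exons 5 to 7, a change made by genome editing on both alleles.

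p53, the protein of Trp53, is a transcription factor that is held at a low level in unstressed cells and is stabilised after DNA damage. Mdm2 is the ubiquitin ligase that marks p53 for degradation, Mdm4 is a related protein that binds and inhibits p53, and Usp7 removes ubiquitin from both Mdm2 and p53. Cdkn1a encodes the cyclin-dependent kinase inhibitor p21, Ccng1 encodes cyclin G1, and Ppm1d encodes the phosphatase Wip1, which acts against the damage response. Mdm2 is itself a p53 target, so that the pathway contains a feedback loop. Mouse embryonic stem cells express p53 at an appreciable level. m6A lies mostly in the RRACH motif (R is A or G, H is A, C or T), often near stop codons and in long last exons.

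There were separate lists of WT and of KO from 7 tools. Of these, Tombo, MINES, Nanom6A and m6Anet start from the current signal, and ELIGOS and Epinano from base-calling errors, all in single-mode, whereas xPore fits the signal of samples together in compare-mode. By the paper's description, the KO list of xPore would not be a call on the KO library alone. Of the 3 tools that gave only a comparison of WT with KO, Nanocompore uses the signal and DiffErr and DRUMMER use base-calling errors, and these 3 are called comparison tools below. The support of a position was counted as the tools, of 10 in all, whose WT or comparison list held it. All 10 tools read the same 2 libraries, so their agreement is not replication. Nor are all tools separate methods. Per the paper, MINES takes values computed by Tombo as its input, and Nanom6A starts from signal that Tombo assigned to bases. With 1 library per condition no test was possible, and the exact (Clopper-Pearson) 95% intervals cover counting error only. The lists gave no read number, so for a position that is not listed, a missing modification and too few reads cannot be told apart. At Mettl3, exons 1 to 7 held 9 listed positions in WT and 0 in KO, and exons 8 to 11 held 4 and 5. The 8 stem cell marker genes examined all had listed positions in both libraries, between 6 and 50 in WT.

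The sequences around the positions on which the results turn are shown first, as 21 bases of the GRCm38 reference from 5′ to 3′ on the strand of the transcript. Capitals mark the RRACH 5-mer, whose middle A is the listed base. Distances are counted along the spliced transcript from where the stop codon begins. The reference is of another mouse strain (C57BL/6J) than the cells. Most are positions that a comparison tool or at least 5 tools listed. The position of Mdm4 is the 5′ one of those with most tools in that gene, and those of Ppm1d and of Cdkn1a at 958 nt are shown because several tools listed them in KO.
Trp53, 801 nt before the stop codon, chr11:69587599-69587619, plus strand: gcagtctgGGACAgccaagtc
Mdm2, 111 nt before the stop codon, chr10:117690313-117690333, minus strand: tcacggcaAGACTggacacct
Mdm2, 106 nt before the stop codon, chr10:117690308-117690328, minus strand: gcaagactGGACAcctcatgt
Mdm2, 271 nt after the stop codon, chr10:117689931-117689951, minus strand: gcttggaaGGACTttggaagt
Mdm2, 323 nt after the stop codon, chr10:117689879-117689899, minus strand: atgatggtGGACCttcctcat
Mdm4, 1612 nt after the stop codon, chr1:132990036-132990056, minus strand: aattcttaGGACAagggtaga
Usp7, 29 nt after the stop codon, chr16:8690743-8690763, minus strand: aaggcgagGGACAgtgcgtgg
Cdkn1a, 404 nt before the stop codon, chr17:29098471-29098491, plus strand: ggtcccgtGGACAgtgagcag
Cdkn1a, 958 nt after the stop codon, chr17:29100339-29100359, plus strand: tgggatggGGACCccagttgg
Cdkn1a, 1170 nt after the stop codon, chr17:29100551-29100571, plus strand: cctggtctGGACTgtctaccc
Ccng1, 728 nt before the stop codon, chr11:40753904-40753924, minus strand: agattacgGGACTttgaagta
Ccng1, 458 nt after the stop codon, chr11:40750402-40750422, minus strand: tgggtgatGGACTtacaaagt
Ppm1d, 787 nt before the stop codon, chr11:85339555-85339575, plus strand: gtgagcaaGGACAgtcctgtg

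All 203 positions had an RRACH 5-mer, and none lay in an exon of another gene on the same strand. Of these 203 positions, 128 were listed in both libraries, 56 in WT or the comparison only and 19 in KO only. The share of WT positions that no tool listed in KO was 30.4% (56 of 184, interval 23.9% to 37.6%), while over all WT positions of the series it was 41.0%. The share depended on how a position was matched. It was 60.5% when at least 2 tools of the same library had to list a position (interval 48.6% to 71.6%), against 62.1% over the series. When only the same tool counted, over 320 pairs of tool and position, it was 52.8% (interval 47.2% to 58.4%), against 55.5%. Under both of these the series value lay within the interval of the 7 genes. Comparison tools listed 5 of the 184 positions (2.72%, interval 0.888% to 6.23%), against 2.45% over the series, so the share of the p53 pathway genes was near the background. Without Nanocompore 3 of the 5 would remain. The 5 positions lay in Mdm2, Usp7, Cdkn1a (2 positions) and Ccng1. Thus 4 of 7 genes had such a position, against 16.2% of all genes with a WT or comparison position, but genes were not matched on their number of listed positions. At least 5 tools listed 11 of the 184 positions (5.98%, interval 3.02% to 10.4%), against 3.28% over the series. Without the Tombo lists 6 positions reached 5 tools, and without Nanom6A or without MINES 7 did.

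**Figure D1:**
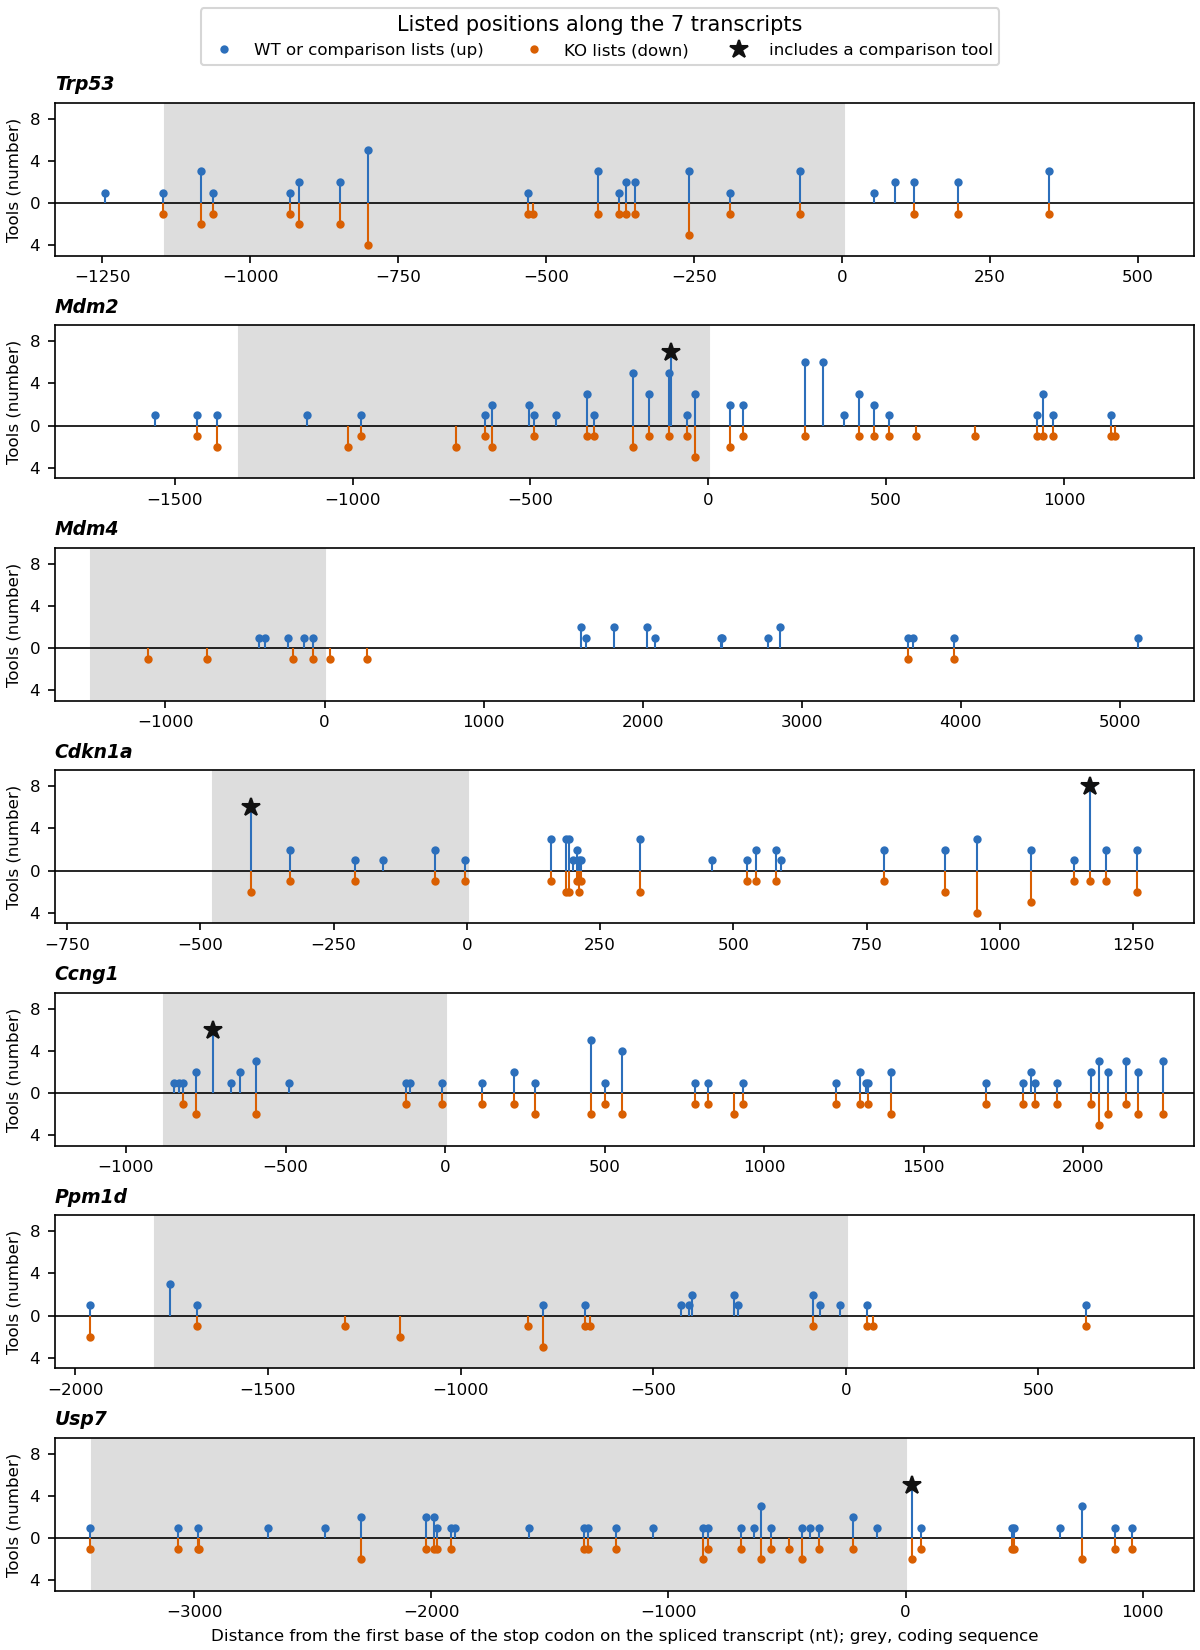
Listed positions of the 7 genes along their spliced transcripts, as distance in nt from where the stop codon begins, with the coding sequence in grey. Lines up give the number of tools in WT or the comparison, lines down the number of tools in KO, and stars mark the 5 positions listed by a comparison tool. The highest lines stand in Cdkn1a (8 tools) and Mdm2 (7 tools), and no line in Mdm4 goes beyond 2 tools.

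Trp53 (ENSMUSG00000059552, chr11:69580359-69591873, plus strand) had 22 positions, 21 in WT and 19 in KO, with 18 in both. Its transcript ENSMUST00000171247 of 11 exons holds 24 RRACH positions, of which 87.5% were listed in WT (interval 67.6% to 97.3%) and 79.2% in KO. Over the coding transcripts of all genes with a WT or comparison position, 28.2% of RRACH positions had a WT or comparison call, and 22.3% had a call from KO. The share of Trp53 in WT stood at percentile 96.7 among 9137 genes, whose median was 33.3%. No comparison tool, no ELIGOS list and no xPore list held a position in Trp53. The best supported position was 69587609, a GGACA in the coding part of exon 4. Tombo, MINES, Nanom6A, m6Anet and Epinano listed it in WT, and 4 of these 5, all but Epinano, listed it in KO as well. A GAACT in exon 8, at 69589684, was listed by Nanom6A, m6Anet and Epinano in both libraries. Of the 21 positions, 2 lay in the 5′ UTR, 14 in the coding sequence and 5 in the 3′ UTR, and only 5 were in the last exon. These places hold for this transcript, whose coding sequence is 1143 nt. On the Trp53 transcript with the longest coding sequence (1170 nt), the positions 69591360, 69591396 and 69591427 are coding, and stop distances differ.

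Mdm2 (ENSMUSG00000020184, chr10:117688875-117710758, minus strand) had 30 positions in WT and 28 in KO, with 23 in both. It held 5 of the 11 positions with at least 5 tools, more than any other of the 7 genes. All 5 lay in exon 12, its last exon of 1911 nt, between 212 nt before and 323 nt after the stop codon. The position 117690318, a GGACA 106 nt before the stop codon, was listed by Tombo, MINES, Nanom6A, m6Anet, Epinano and xPore in WT and by DiffErr in the comparison, but it was in no KO list. Its neighbour at 117690323, an AGACT only 5 nt upstream, had 5 tools in WT and xPore in KO. Their 5-mers adjoin without sharing a base, the 2 sequences printed above overlap, and whether the calls rest on shared signal was not tested. In the 3′ UTR, the GGACT at 117689941 had 6 tools in WT and m6Anet in KO, and the GGACC at 117689889 had 6 tools in WT and none in KO. The GGACA at 117690424 had 5 tools in WT (Tombo, MINES, m6Anet, ELIGOS and xPore) and Tombo and MINES in KO. Not every position of exon 12 had this pattern: the AGACA at 117690249, only 37 nt before the stop codon, was listed by Tombo, Nanom6A and m6Anet in WT and by the same tools in KO. Upstream of exon 12, Mdm2 had no position with more than 2 tools in WT, and 2 tools listed 117695993 and 117692640 in KO alone.

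Mdm4 (ENSMUSG00000054387, chr1:132959484-133030561, minus strand) had 18 positions in WT and 8 in KO, and only 3 were in both. Its transcript has a 3′ UTR of 5436 nt, and 19.1% of its 94 RRACH positions had a call in WT and 8.51% in KO, the lowest shares of the 7 genes. No position of Mdm4 had more than 2 tools. Tombo or Epinano listed 17 of the 18, and Nanom6A, ELIGOS and xPore listed none in either library. The named position was the GGACA at 132990046 in the 3′ UTR, listed by Tombo and MINES in WT and absent from all KO lists. Beyond 1000 nt of the stop codon the 3′ UTR had 13 positions in WT and 2 in KO among 55 RRACH positions, whereas closer to the stop codon it had 0 and 2 of 15. The Mdm4 transcript with the longest coding sequence lacks the 13 far positions. Beyond 1000 nt, the other genes with RRACH positions there did not have this drop. Ccng1 had 16 positions in WT and 14 in KO, Cdkn1a 5 and 5, and Mdm2 1 and 2. A share over all genes beyond 1000 nt is not given here. For the whole 3′ UTR it was 27.7% in WT and 20.3% in KO.

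Usp7 (ENSMUSG00000022710, chr16:8689595-8792308, minus strand) had 36 positions in WT and 28 in KO, with 26 in both. Of the 36, 29 were listed by a single tool, and 26 lay in the coding sequence, which spans most of 32 exons. Only 3 had at least 3 tools. The best supported was 8690753, a GGACA in exon 32, 29 nt after the first base of the stop codon. Tombo, Nanom6A, m6Anet and Epinano listed it in WT and Nanocompore in the comparison, while Tombo and xPore listed it in KO. ELIGOS listed no position of Usp7 in either library, and xPore listed none in WT and 1 in KO. A single position, 8738218, lay in an exon of another Usp7 transcript and has no place relative to the stop codon here.

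Cdkn1a (ENSMUSG00000023067, chr17:29090976-29100727, plus strand) had 27 positions in WT, and 23 of them were also in KO. No position was in KO only. On its short transcript of 2080 nt, 84.4% of 32 RRACH positions had a call in WT and 71.9% in KO, and the WT share stood at percentile 96.1 of all genes. It was the only gene of the 7 with a DRUMMER position. The GGACT at 29100561 in the 3′ UTR had the most support of all 203 positions: Tombo, Nanom6A, m6Anet, ELIGOS, Epinano and xPore listed it in WT, DiffErr and DRUMMER in the comparison, and Tombo in KO. The GGACA at 29098481, in the coding part of exon 2, was listed by Tombo, MINES, m6Anet, ELIGOS and Epinano in WT, by DRUMMER in the comparison and by Tombo and xPore in KO. Some other positions of the Cdkn1a 3′ UTR were listed by as many tools in KO as in WT or by more. The GGACC at 29100349 had Nanom6A, ELIGOS and Epinano in WT and these tools and Tombo in KO, and the GGACA at 29100449 had m6Anet and xPore in WT and these tools and Nanom6A in KO.

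A stretch of the Cdkn1a 3′ UTR that repeats AAAC, chosen after its values were seen, is printed with the listed bases in capitals to show how closely such positions can lie.
Cdkn1a 3′ UTR, chr17:29099577-29099606, plus strand: AcaaaAcaaaaaaaAccaaaAcaaaAcaaA
It spans 30 bases and holds 6 RRACH positions, and all 6 were listed in WT and 5 of them in both libraries. No more than 3 tools listed any of them in WT, no comparison tool did, and Nanom6A listed 5. Whether calls at such neighbouring positions rest on shared signal was not tested.

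Ccng1 (ENSMUSG00000020326, chr11:40748552-40755311, minus strand) had 37 positions in WT and 29 in KO, with 28 in both. Nanom6A listed 30 of the 37 in WT, and 16 were listed by Nanom6A alone. The GGACT at 40753914 was the position of Ccng1 with most tools and lay far from the stop codon, in the coding part of exon 2. Tombo, Nanom6A, m6Anet, ELIGOS and xPore listed it in WT and Nanocompore in the comparison, and no tool listed it in KO. It was the only comparison-listed position of the 7 genes outside Mdm2 that no tool listed in KO. The GGACT at 40750412 in the 3′ UTR had Tombo, MINES, Nanom6A, m6Anet and xPore in WT and Tombo and Nanom6A in KO. Near the end of the transcript, the GGACA at 40748821 was listed by Tombo, MINES and Nanom6A in both libraries.

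Ppm1d (ENSMUSG00000020525, chr11:85311244-85347066, plus strand) had 15 positions in WT and 12 in KO, with 7 in both. Tombo or Epinano listed all 15, and Nanom6A, ELIGOS, xPore and the comparison tools listed none in either library. m6Anet listed 0 positions in WT and 4 in KO. The named position, the GGACA at 85339565 in exon 5, had Tombo in WT and Tombo, MINES and m6Anet in KO, so that its support was larger in the library without Mettl3. The position with most tools in WT, chosen after its values were seen, was the GGACC at 85311513 in exon 1, which Tombo, MINES and Epinano listed in WT and no tool in KO. In the coding part of the last exon WT had 8 of the 11 RRACH positions and KO had 1, whereas in the coding sequence upstream 4 of 19 were listed in WT and 7 in KO.

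**Figure D2:**
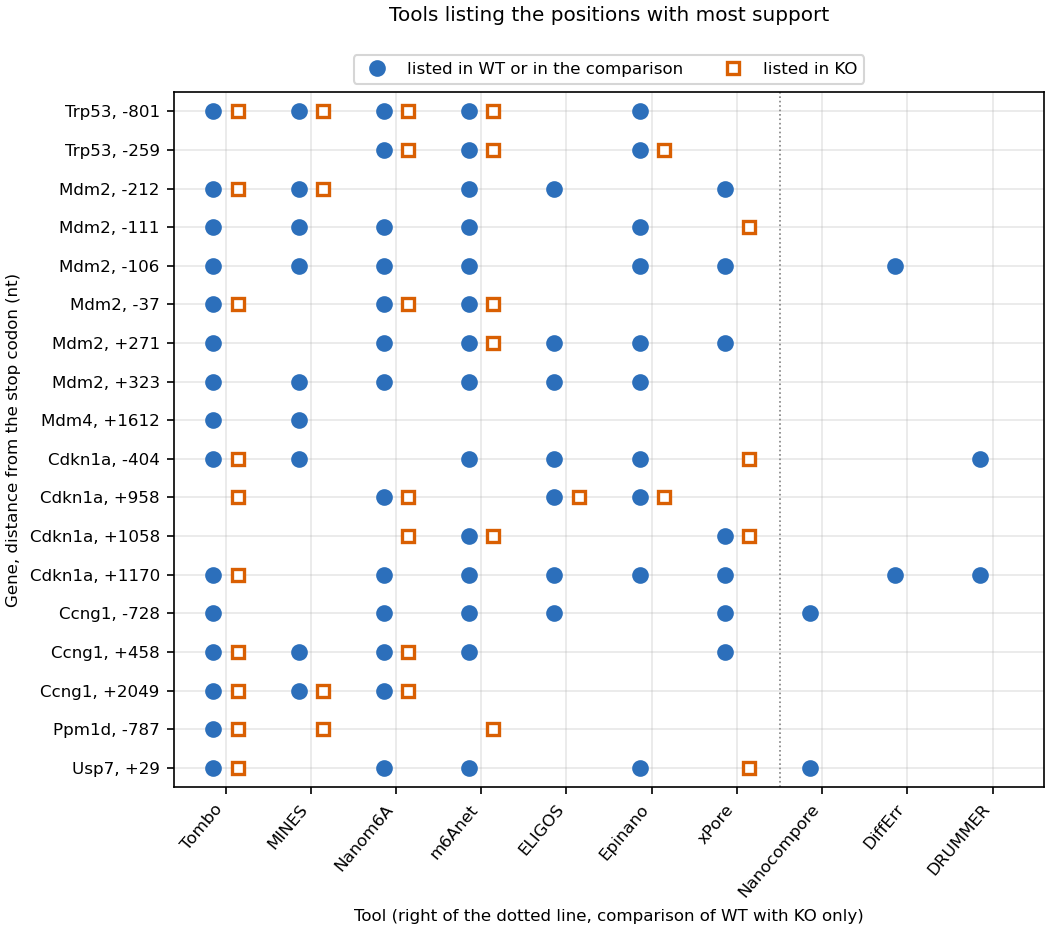
Tools (horizontal axis) that listed each of the 18 named positions (vertical axis, gene and distance from the stop codon in nt). Filled circles stand for WT or the comparison and open squares for KO. The 3 positions with at least 5 circles and no square are Mdm2 at -106 and +323 and Ccng1 at -728.

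The lists differed widely in length between tools. In WT, Tombo listed 94 positions of the 7 genes, Nanom6A 85, Epinano 53, m6Anet 52, MINES 15, ELIGOS 11 and xPore 10, and each comparison tool listed 2. In KO the same tools listed 81 (Tombo), 62 (Nanom6A), 14 (Epinano), 22 (m6Anet), 8 (MINES), 2 (ELIGOS) and 8 (xPore). For each of the 7 tools with a KO list the KO count was the lower one, as it was over all genes in the series. The ratio of KO to WT positions ran from 0.182 (ELIGOS) to 0.862 (Tombo) in the 7 genes, and over the series from 0.259 (ELIGOS) to 0.905 (Tombo). By gene this did not always hold, as m6Anet in Ppm1d, MINES in Ppm1d, and Nanom6A and xPore in Usp7 listed more positions in KO.

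The share of a tool's WT positions that the same tool also listed in KO was 69.1% for Tombo (65 of 94, interval 58.8% to 78.3%), against 59.7% over the series. For Nanom6A it was 62.4% (53 of 85), against 65.4%. For m6Anet it was 25.0% (13 of 52, interval 14.0% to 38.9%), against 34.4%, and for MINES 26.7% (4 of 15), against 40.2%. For Epinano it was 18.9% (10 of 53), against 16.5%, for ELIGOS 18.2% (2 of 11), against 11.5%, and for xPore 40.0% (4 of 10), against 24.9%. Each share over the series lay within the interval of the 7 genes. Tombo and Nanom6A had the highest shares, both in the 7 genes and over the series.

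**Figure D3:**
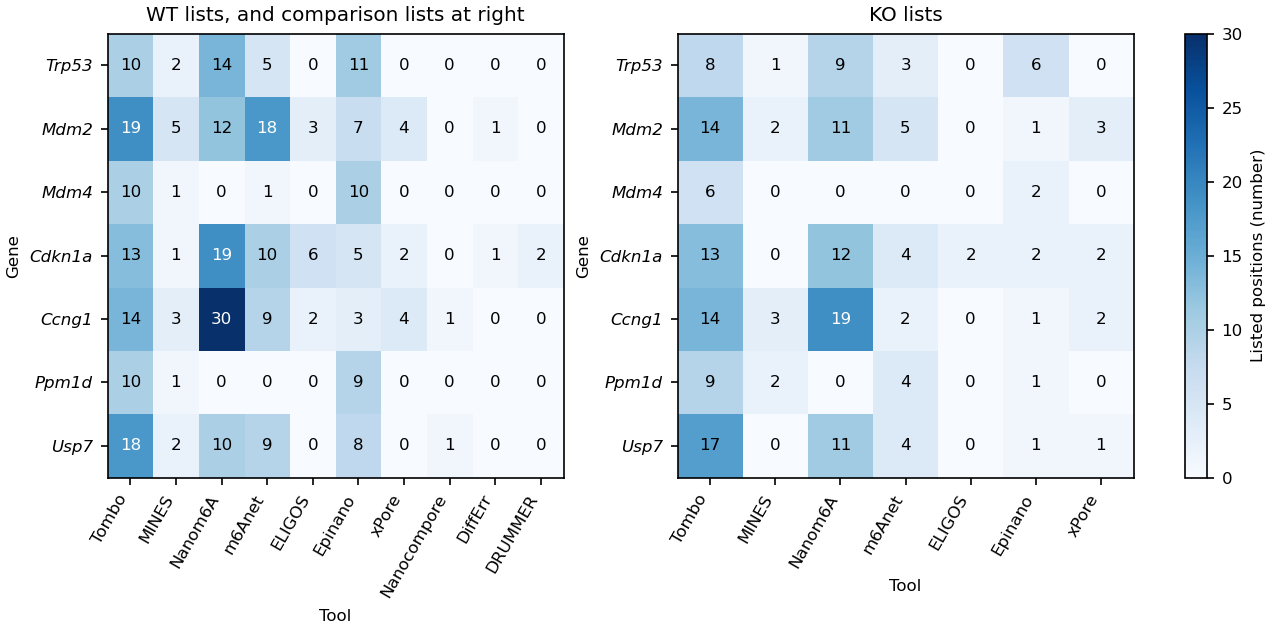
Number of listed positions for each gene (rows) and tool (columns) in WT and the comparison at left and in KO at right, with the colour scale running from 0 to 30 positions. Mdm4 and Ppm1d have counts mainly under Tombo and Epinano, and the highest count is Nanom6A in Ccng1, at 30 in WT and 19 in KO.

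Listing in KO was also compared between positions of different support. Of the 108 positions with a single tool in WT, 61.1% were also in KO (interval 51.3% to 70.3%). The share was 76.2% of 42 positions with 2 tools and 95.5% of 22 positions with 3 tools (interval 77.2% to 99.9%). Of the 11 positions with at least 5 tools, 8 were in KO (72.7%, interval 39.0% to 94.0%). Over the series the shares were 52.8%, 69.0% and 74.0% for 1, 2 and 3 tools and 72.2% for at least 5 tools. Among these groups, the 3-tool share of the 7 genes was the only one whose interval did not include the value over the series. Of the 19 positions in KO only, 15 had a single tool and 4 had 2 tools. They were distributed as 5 each in Mdm2, Mdm4 and Ppm1d, 2 in Usp7, 1 each in Trp53 and Ccng1, and 0 in Cdkn1a. The largest number of tools at a position in KO was 4, at the Trp53 and Cdkn1a positions given above.

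By place on the transcript, 33 of the 183 WT positions on the chosen transcripts lay within 200 nt of the stop codon (18.0%, interval 12.8% to 24.4%), against 22.3% over the series. The listing of RRACH positions in this window was set beside that farther away, and the part of coverage was not tested. Of 39 RRACH positions within it 84.6% had a call in WT and 64.1% a call in KO, while the shares of the 322 farther away were 46.6% and 37.9%. The WT share was the higher one within the window in 5 of the 7 genes, but not in Trp53 (85.7% within and 88.2% farther away) or Cdkn1a (77.8% and 87.0%). Mdm4 held 91 of the 322 farther positions, of which 17.6% had a call in WT. Over all genes, 49.1% of RRACH positions in the same window had a WT or comparison call, against 36.7% with a call from KO. In the coding part of the last exon, 80.0% of 35 RRACH positions were listed in WT (interval 63.1% to 91.6%) and 40.0% in KO, against 40.0% and 29.5% over all genes. In the coding sequence before the last exon, the shares over 126 positions were 49.2% in WT and 44.4% in KO, against 27.8% and 23.8% over all genes. In the 3′ UTR they were 48.6% and 40.7% over 177 positions, against 27.7% and 20.3%. The KO count was thus 0.5 of the WT count in the coding part of the last exon, against 0.738 over all genes, 0.903 in the coding sequence before it, against 0.854, and 0.837 in the 3′ UTR, against 0.733. Ppm1d, with 8 positions in WT and 1 in KO, Mdm2, with 11 and 8, and Mdm4, with 5 and 2, held most of the positions of the last exon's coding part. The ratio there was low in Ppm1d (0.125) and Mdm4 (0.4). It was 0.727 in Mdm2, 0.667 in Ccng1 and 1.0 in Cdkn1a, so the pooled 0.5 was not shared by all genes. Before the last exon the genes went different ways. Ccng1 had 9 coding positions in WT and 3 in KO there, Usp7 26 and 20, and Cdkn1a 5 and 4. The other 4 genes had more in KO, with 4 and 7 for Ppm1d, 4 and 5 for Mdm2, 14 and 15 for Trp53 and 0 and 2 for Mdm4. Among the 11 positions with at least 5 tools, 8 lay in the last exon and 3 within 200 nt of the stop codon. Of all 183 WT positions of the 7 genes placed on these transcripts, 114 (62.3%) lay in the last exon, as did 58.7% of their RRACH positions.

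**Figure D4:**
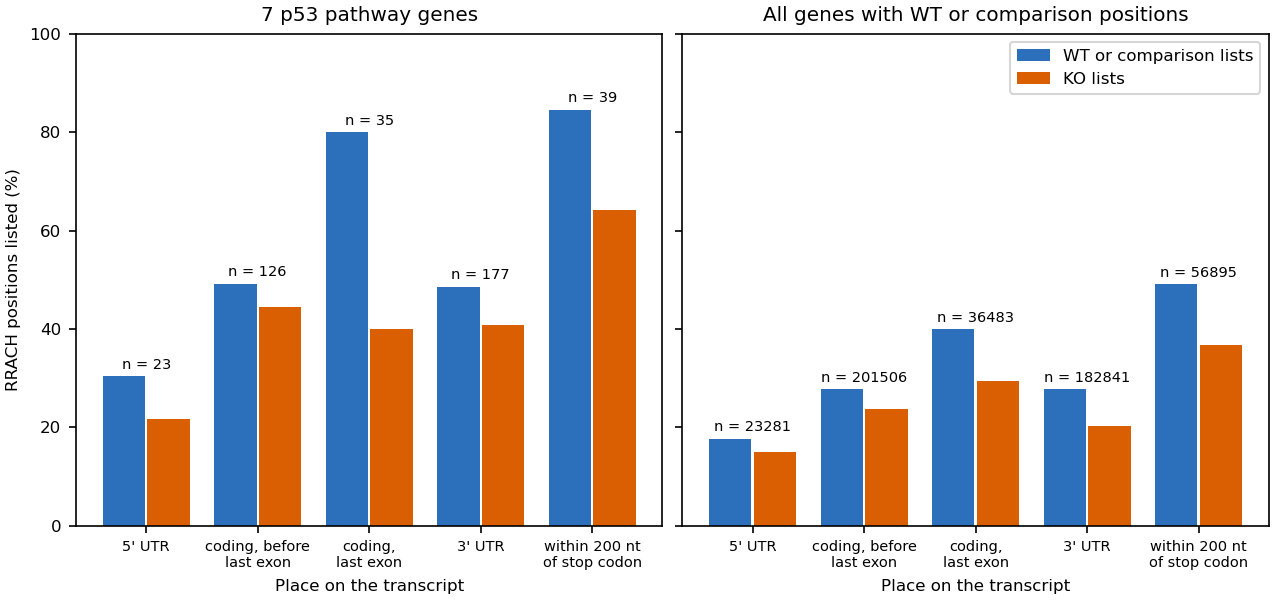
Share in percent of the RRACH positions that were listed in WT or the comparison and in KO by place on the transcript, for the 7 genes at left and for all genes with WT or comparison positions at right. Numbers above the bars are RRACH positions. The largest gap between the bars of the 7 genes is in the coding part of the last exon, at 80.0% and 40.0%. There Ppm1d had 72.7% and 9.09%, Mdm4 71.4% and 28.6%, and Mdm2 91.7% and 66.7%.

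By sequence, 51 of the 184 WT positions (27.7%) were in GGACN, against 23.3% of the 361 RRACH positions on the 7 transcripts and 34.4% of the WT or comparison positions of the series outside the mitochondrial genome. Of the 11 positions with at least 5 tools 10 were in GGACN, 5 in GGACA, 4 in GGACT and 1 in GGACC, and the other was an AGACT. The 5 comparison-listed positions were 3 GGACA and 2 GGACT. The 5-mers of the series positions with at least 5 tools, or with a comparison tool, are not given here. Whether these counts differ from the series therefore cannot be told. MINES reports only a subset of RRACH, and all its 15 WT positions here were in GGACN or AGACT, so positions in other 5-mers could reach fewer tools. The share of WT positions that were also in KO differed between 5-mers, with 7 to 24 WT positions each. It was lowest for GGACC (4 of 13, 30.8%), followed by GGACT (7 of 14), GAACA (7 of 12, 58.3%) and AGACC (6 of 10). In the 8 other 5-mers it ran from 70.6% for AGACT to 90.9% for GAACT, with GGACA at 75.0% (18 of 24) and AGACA at 83.3% (20 of 24). Over all genes outside the mitochondrial genome the shares were 44.6% for GGACC, 52.7% for GGACT, 50.5% for GAACA, 61.3% for AGACC, 50.1% for AGACT, 59.2% for GAACT, 66.3% for GGACA and 71.2% for AGACA, so that GGACC was lowest there too.

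Of 48 other p53 pathway genes, 39 had positions in WT and 42 in KO. Together they held 589 WT and 503 KO positions, and 11 of the 39 genes with WT positions (28.2%) had a position listed by a comparison tool, against 16.2% of genes over the series. Such positions numbered 31 of the 589 (5.26%), against 2.45% over the series, and 17 of the 31 lay in Usp10 and Phlda3. The 8 stem cell marker genes all had such a position, with 20 of their 228 WT positions (8.77%). Genes were not matched on their number of listed positions. Among 21 activators and modifiers of p53, 19 had WT positions and 6 had comparison-listed ones, and among 25 other targets 20 and 5 did. The family members Trp63 and Trp73 had no position in any list. Usp10, another deubiquitinase of p53, had the most comparison-listed positions, 10 among 39 positions in WT, with 36 in KO. Phlda3, a p53 target that inhibits Akt, had 7 among 18 in WT, with 15 in KO. Tigar, a target that acts on glycolysis, had 4 among 17 in WT, with 27 in KO. Rpl5, a ribosomal protein gene whose product binds Mdm2, and Trim24, a ubiquitin ligase gene for p53, had 2 each. Of the 7 genes, Cdkn1a had the most such positions, with 2.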

How the data were processed

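Per the study's methods, the authors basecalled the DRS reads with Guppy, aligned them with Minimap2 to the GENCODE mouse transcriptome, ran each tool, and moved transcript positions to GRCm38 (mm10). The authors deposited 17 lists whose values are positions, with neither scores nor read numbers, so that the depth of a position is unknown. The methods describe a cut-off for each tool, set against other m6A maps, and a minimum read number. The lists do not say whether these were applied. Over all genes the Tombo WT list held 75219 positions and the DRUMMER list 1267. Both lie outside the range of site numbers that the paper gives for WT at its cut-offs. At least these lists are therefore not the paper's sets at those cut-offs.

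Here a position was a unique genome position and strand. Genes and transcripts came from GENCODE M21 of the same build by same-strand exon overlap, and the transcript of a gene was the coding one that held most of its positions. Of 466 member lines with a transcript position, 403 matched M21. The 63 others were all on a Cdkn1a transcript and differed by 3 nt, and genome positions were used throughout. The processed pseudogenes Trp53-ps and Mdm4-ps had 0 listed positions, and reads that the aligner may have shared with them were not examined. Positions were named where a comparison tool listed them, where at least 5 tools did in WT or the comparison, or where at least 3 tools did in KO. A gene without any was represented by its position with most tools, the 5′ one among ties. The genes, lists and rules were chosen with earlier results of these data known. Counting was tested on simulated lists. The tools were bedtools 2.31.1, pysam 0.24.0, scipy 1.17.1, pandas 2.3.3 and matplotlib 3.10.9 under Python 3.11.15.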

Additional observations from a re-analysis of the deposited data

How the results depend on the processing

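Of 57 alternatives, 42 left their value within 1.5 times the count, or within its interval for a share, and 15 moved it. Counting 1 per line gave 386 positions in WT or comparison lists and 227 in KO lists, in place of 184 and 147. Asking for at least 2 tools of the same library gave 76 and 41. The share of WT positions in no KO list, 30.4%, became 43.5% without Tombo, 38.4% without Nanom6A, 60.5% with at least 2 tools and 52.8% with the same tool in both libraries. The share close to the stop codon, 18.0% within 200 nt, became 9.29% in a window of 100 nt and 32.2% in 400 nt. The 11 positions with at least 5 tools became 6 without Tombo, 7 without Nanom6A, 7 without MINES and 6 when at least 6 tools were asked for. The 5 comparison-listed positions became 3 without Nanocompore and 4 without DiffErr or without DRUMMER, alternatives chosen after seeing the data. On the transcript with the longest coding sequence, 3 positions of Trp53 moved from the 3′ UTR and 2 of Mdm2 from the 5′ UTR into the coding sequence. No paired analysis was possible because each condition had 1 library. Depth limits every count, since the lists hold no coverage.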
